A study of Mus musculus with 6 samples.

Results

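The embryonic stem cell BAF complex is a chromatin remodeller of the SWI/SNF family, and 10 genes for its subunits are described here. The genes are Smarca4, Smarcb1, Smarcc1, Smarcc2, Smarcd1, Smarce1, Arid1a, Arid1b, Dpf2 and Actl6a. The list goes by subunit name and has no threshold on a measured value, but it was drawn up with earlier results of these data known. All 10 were found among the 33924 gene symbols of the count tables and passed the filter on low counts. RNA was sequenced from E14, a mouse embryonic stem cell line, in 3 control libraries with the cell type label WT and in 3 libraries with the label Rif1-KO. Rif1 encodes a chromatin protein with parts in replication timing, break repair and gene silencing, and the series compares gene expression with and without it. The labels give every library the same 2i medium, the treatment Day 0, and exposure to 4-OHT (4-hydroxytamoxifen) at 0.1 µM over 2 days with 1 day free of drug after it. The file headers, in contrast, carry TAM for the Rif1-KO libraries and 2i for the control libraries, so an effect of the drug and one of the genotype cannot be told apart here. No source used here gives the way Rif1 was disrupted, or says whether the libraries of a group come from separate cultures or from 1 clone. The p-values therefore rest on the spread among these libraries alone, which may be technical.

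BAF complexes use the energy of ATP to slide or evict nucleosomes and so open chromatin at enhancers and promoters. They are built from positions that related proteins can fill, and each cell type has its own set of these paralogs. In embryonic stem cells the known assembly holds BRG1 (from Smarca4) rather than BRM (from Smarca2), is rich in BAF155 (from Smarcc1) and BAF250A (from Arid1a), and is needed for self-renewal and for the balance with Polycomb silencing. A sister complex, PBAF, replaces the ARID1 and DPF proteins with ARID2, PBRM1, BRD7 and PHF10. A smaller form, non-canonical BAF (ncBAF), is marked by BRD9 and lacks the ARID proteins.

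Total counts per library ran from 8383632 to 10980777. Rif1 itself stood at 677 ± 21.9 CPM (the count over the TMM-scaled library size) in control and at 623 ± 35.5 CPM in the Rif1-KO libraries (SD, n = 3; adjusted p = 0.0509, passing in 9 of 14 alternative settings). With GC content and length as an offset its log2 fold change went from −0.12 to −0.37 (adjusted p = 3.3e-07). This is no check of the labels, because reads are summed over the gene and the loss of single exons would not show. All 9 embryonic stem cell markers looked up were read, with a summed level of 4930 to 5170 CPM in control and of 4880 to 5230 CPM under Rif1-KO. Of these 9 markers, 3 rose and 3 fell. In these bulk libraries, fewer cells of a type and less RNA per cell cannot be told apart.

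Most BAF genes were lower in the Rif1-KO libraries. Of the 10 genes, 9 fell, none rose and Smarce1 did not pass. A gene is said to fall or rise at an adjusted p under 0.05 (edgeR, quasi-likelihood test; p-values adjusted by Benjamini and Hochberg's method over 14250 tested genes). Over all of those genes 24.8% fell, 26.1% rose and 50.9% passed in either direction. Actl6a fell by 11.2%, the smallest drop among the 9, and Smarcc2 fell by 29.3%, the largest. This order changed in some alternative settings, as given below. The median log2 fold change, Rif1-KO over control, was −0.348 for the 10 genes and 0.00347 for all tested genes, and 7 of the 10 differed by more than the median absolute log2 change of all tested genes, 0.247. At 9 of the 10 genes the 2 groups of libraries did not overlap, which held for 57.2% of all tested genes. Together the 10 genes took 1717, 1884 and 1844 CPM in the control libraries and 1373, 1376 and 1450 CPM in the Rif1-KO libraries, so the mean fell by 22.9%.

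**Figure D1:**
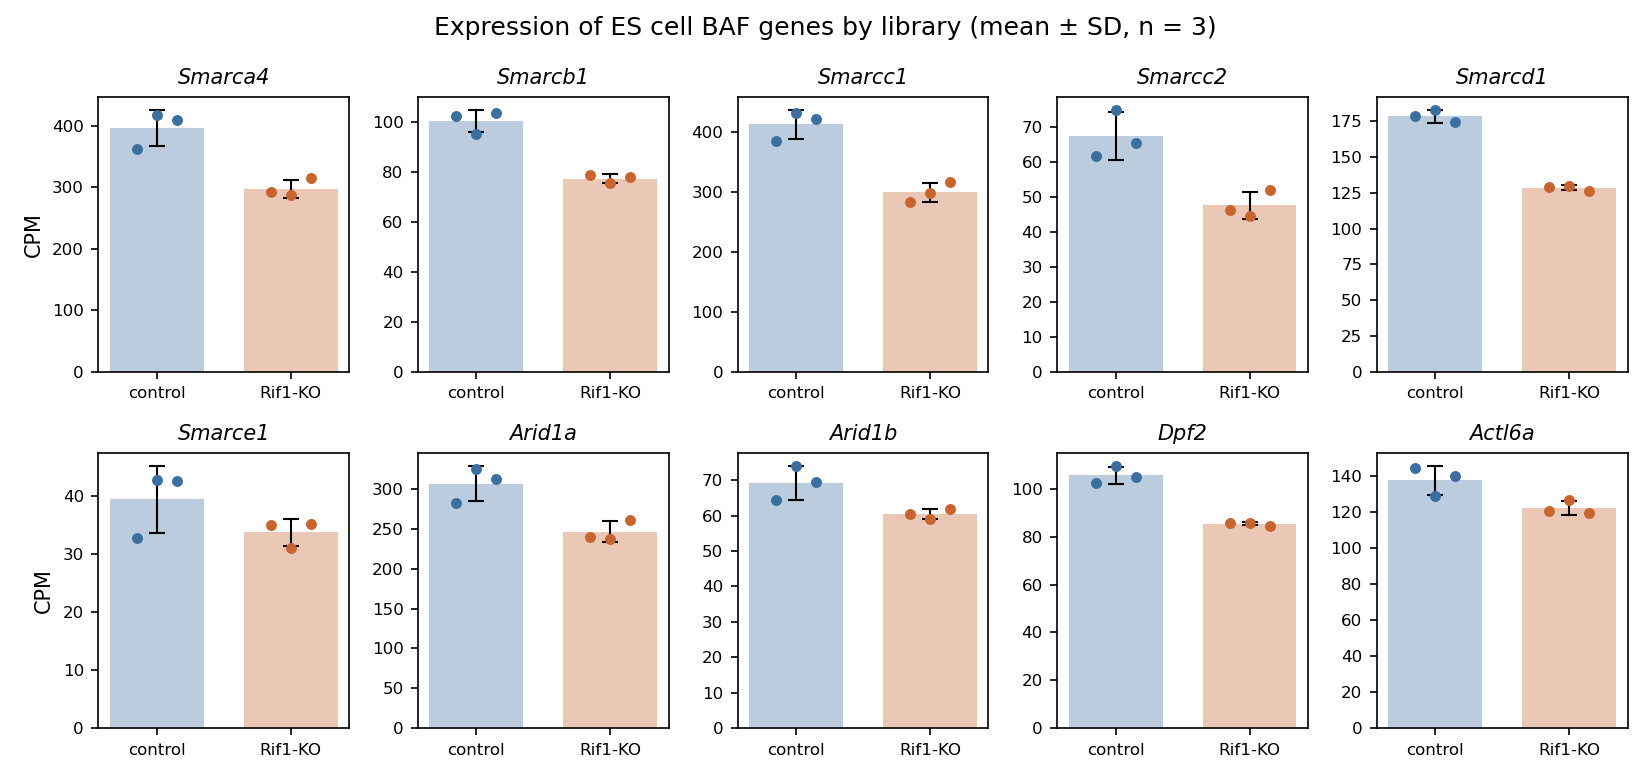
Expression of the 10 BAF subunit genes in CPM (vertical axes, each from 0) in 3 control and 3 Rif1-KO libraries; points are libraries, bars are means and error bars are SD. The Rif1-KO points lie below all control points for every gene except Smarce1, where control replicate 1 is the second lowest of the 6 libraries.

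The summed levels of markers of other cell states differed between the groups, and their part in the changes was not tested. Of the two-cell-like markers, 5 of 7 were in the table, and the control libraries summed to 0.332 to 0.432 CPM over them, the Rif1-KO libraries to 28.6 to 31.7 CPM, and all 5 rose. The 5 primitive endoderm markers summed to 13.3 to 14.9 and 26.9 to 30 CPM, and 4 of 4 tested rose. Of 8 neural markers, 7 were in the table, with Dcx at 0 in all libraries and the sum of the rest was 66.9 to 84.4 CPM for control and 139 to 142 CPM for Rif1-KO. Only 4 of the neural markers were tested, of which 2 rose and 1 fell. The 6 fibroblast markers, with Lum at 0, summed to 11.2 to 18.8 and 8.64 to 9.09 CPM, and of the 2 tested 1 fell.

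Smarca4 encodes BRG1, the ATPase that drives the complex. Its control libraries read 362, 417 and 409 CPM, and its Rif1-KO libraries 292, 287 and 314 CPM. Every Rif1-KO library lay below the lowest control library. The log2 fold change was −0.41 ± 0.05 (standard error; adjusted p = 3.2e-06), and the mean fell by 24.9%. Smarca2, the gene for the alternative ATPase BRM, moved the other way from a far lower level. It stood at 5.95, 8.63 and 6.86 CPM in control and at 10.3, 10 and 13.1 CPM in the Rif1-KO libraries, again without overlap, and rose by 0.64 ± 0.15 on the log2 scale (adjusted p = 0.00159).

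Smarcc1 and Smarcc2 encode the related scaffold proteins BAF155 and BAF170, around which BAF complexes are assembled. Smarcc1 had the highest mean CPM of the 10 genes in both groups, though Smarca4 was above it in Rif1-KO replicate 1. It stood at 385, 432 and 422 CPM in control, and 284, 299 and 316 CPM in the Rif1-KO libraries. Its log2 fold change was −0.46 ± 0.05 (adjusted p = 4.13e-07). Smarcc2, the paralog better known from differentiated cells, stood at 61.6, 74.8 and 65.4 CPM in control and at 46.3, 44.5 and 51.8 CPM in the Rif1-KO libraries. It had the largest drop of the 10, −0.50 ± 0.07 on the log2 scale (adjusted p = 1.28e-05). That rank was not stable. Without control replicate 2 Smarcc2 was −0.42 and Smarcd1 −0.46, and with the GC and length offset Smarcc2 was −0.52 and Smarcc1 −0.59. Both scaffold genes thus fell, with 95% intervals of −0.57 to −0.35 for Smarcc1 and −0.66 to −0.35 for Smarcc2.

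Smarcd1, Smarcb1 and Smarce1 encode further subunits of the BAF complex. Smarcd1, whose product BAF60A links the complex to transcription factors, was the most precisely measured change. It stood at 178, 183 and 174 CPM in control and at 129, 129.9 and 127 CPM in the Rif1-KO libraries, a log2 fold change of −0.47 ± 0.05 (adjusted p = 5.15e-08). The SD was 4.50 CPM for control and 1.80 CPM for Rif1-KO, well under the difference between the group means of 178.6 and 128.6 CPM. Smarcb1, whose product SNF5 grips the nucleosome's acidic face and is lost in rhabdoid tumours, stood at 103, 95.3 and 104 CPM in control. In the Rif1-KO libraries it stood at 79.0, 75.5 and 77.9 CPM, and it fell by 0.38 ± 0.05 on the log2 scale (adjusted p = 6.64e-06). Smarce1, which encodes the DNA-binding HMG subunit BAF57, was the exception. Its values were 32.7, 42.8 and 42.6 CPM in control and 34.98, 31.0 and 35.1 CPM in the Rif1-KO libraries, so control replicate 1 lay inside the Rif1-KO range. The log2 fold change was −0.22 ± 0.09 (95% interval −0.41 to −0.03, adjusted p = 0.0528). Without control replicate 1 it was −0.34 and passed (adjusted p = 0.000979), as it did with the offset for GC and length (−0.39, adjusted p = 0.00157). In all, Smarce1 passed in 6 of 14 alternatives. Without control replicate 3 it was −0.16 (adjusted p = 0.232), and with DESeq2 it was −0.23 (adjusted p = 0.0943).

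Arid1a and Arid1b encode the large ARID subunits that define canonical BAF, and a complex holds one or the other. Arid1a stood at 283, 326 and 313 CPM in control and at 241, 237 and 262 CPM in the Rif1-KO libraries. It fell by 0.32 ± 0.05 on the log2 scale (adjusted p = 6.24e-05). Arid1b, at 64.4, 74.0 and 69.4 CPM in control and 60.4, 59.1 and 61.9 CPM in the Rif1-KO libraries, fell less, by 0.19 ± 0.06 (adjusted p = 0.0112). The gap between its lowest control library and its highest Rif1-KO library was narrow, and without control replicate 2 the call was lost (−0.15, adjusted p = 0.0643).

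Dpf2 encodes BAF45D, a subunit with PHD fingers that read modified histones. It stood at 103, 109.7 and 105 CPM in control and at 85.9, 85.9 and 84.7 CPM in the Rif1-KO libraries, and fell by 0.31 ± 0.05 on the log2 scale (adjusted p = 3.65e-05). The 3 Rif1-KO libraries lay almost on one value. Actl6a, the gene for the actin-related protein BAF53A, had the smallest drop of the 10, though without control replicate 2 it was −0.22 and Arid1b −0.15. Over all libraries the values of Actl6a were as follows. It stood at 144, 129 and 139.6 CPM in control and at 121, 127 and 119 CPM in the Rif1-KO libraries, so the groups were close to touching (log2 fold change −0.17 ± 0.05, adjusted p = 0.00942). BAF53A also sits in the INO80 and TIP60 complexes, so Actl6a is not specific to BAF. Most other members are not specific to canonical BAF either. PBAF, as described above, replaces the ARID1 and DPF proteins, so only Arid1a, Arid1b and Dpf2 set the members apart from it. Comparisons below of members with PBAF or ncBAF genes are therefore not comparisons of whole complexes.

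Gene counts of this kind can gain or lose reads where genes overlap, and no source used here states the strand setting of the counting. In GENCODE M21, 11.6% of the exon bases of Actl6a overlap exons of Mrpl47 on the other strand, and Mrpl47, a mitochondrial ribosomal protein gene, went from 35.9 ± 0.904 to 27.4 ± 1.07 CPM (SD, n = 3; adjusted p = 0.000162). For Smarcd1, 12.7% of exon bases overlap the predicted genes Gm17349 and Gm34939 on the other strand. For the other 8 genes the overlap on either strand was at most 1.57% of exon bases. Reads can also match more than 1 gene by sequence. Of the 50-base stretches of the longest transcript, 20.8% for Actl6a and 9.7% for Smarcd1 also occur in other genes, on either strand. Smarcc1, at 3.2%, was the highest of the other members, and Ss18, used in a ratio below, had 9.5%. For Phf10, a paralog of Dpf2 used in shares and ratios below, 9.6% of exon bases overlap 1600012H06Rik on the other strand. How much such overlaps and shared stretches bear on the values of Actl6a, Smarcd1, Phf10 and Ss18 was not tested.

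Levels can be compared between genes only per length, and are given here as CPM per kb of each gene's longest protein-coding transcript in GENCODE M21. In control, 5 genes stood close together at the top, namely Smarcc1 (71.6 ± 4.28 CPM per kb; SD, n = 3), Actl6a (68.4 ± 3.98), Smarca4 (62.1 ± 4.70), Smarcb1 (60.5 ± 2.76) and Smarcd1 (54.0 ± 1.36). Of the neighbours in that order, Smarcc1 and Actl6a overlapped in their libraries, as did Actl6a and Smarca4, and Smarca4 and Smarcb1. Arid1a (37.5 ± 2.71) and Dpf2 (31.9 ± 1.07) followed, each apart from its neighbours. The lowest were Smarcc2 (14.7 ± 1.49), Smarce1 (13.5 ± 1.98), which overlapped with it, and Arid1b (6.12 ± 0.422). In the Rif1-KO libraries Actl6a, at 60.8 ± 1.98 CPM per kb, stood above Smarcc1, at 51.9 ± 2.80, with no overlap, and the bottom pair Smarce1 (11.5 ± 0.798) and Smarcc2 (10.4 ± 0.836) still overlapped. The order depends on the length used. Over the union of all annotated exons, Smarcb1 fell to 12.7 ± 0.577 CPM per kb in control, because that union spans 7930 bases against 1660 bases for its longest coding transcript, and Smarca4 then ranked first, at 61.2 ± 4.62.

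**Figure D2:**
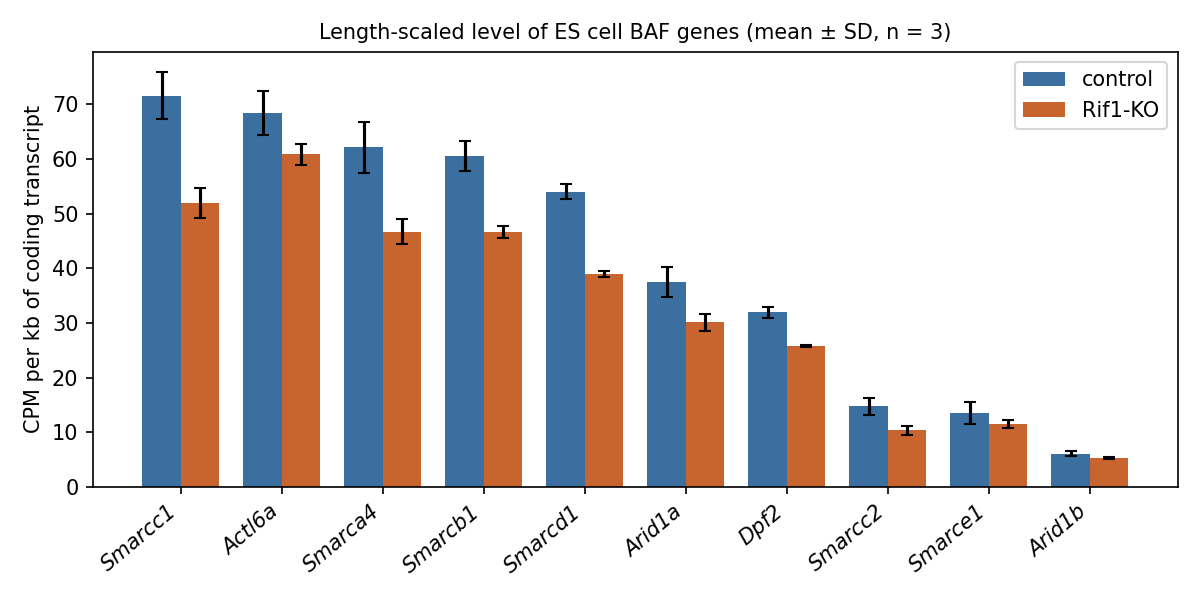
Mean level of each BAF gene in CPM per kb of longest protein-coding transcript (vertical axis, from 0), with control and Rif1-KO bars side by side and SD over 3 libraries as error bars. Smarcc1 is highest in control at 71.6 CPM per kb, Actl6a is highest in the Rif1-KO libraries at 60.8, and Arid1b is lowest in both.

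Paralogs of the same position in BAF or, for Phf10, in PBAF were compared as shares. A share is the part of their summed CPM per kb of exon union that one gene takes within a library. Smarca4 took 99.3%, 99.1% and 99.2% of the ATPase position in control and 98.4%, 98.4% and 98.1% in the Rif1-KO libraries. The mean share fell by 0.856 percentage points, or by 1.96 points with the longest transcript and 1.83 points without division by length. Arid1a took 82.8%, 82.9% and 83.2% of the ARID1 position in control and 81.4%, 81.5% and 82.3% in the Rif1-KO libraries, so that the mean share fell by 1.24 points. Dpf2 took 42.6% ± 0.969 of the position it shares with Dpf1, Dpf3 and Phf10 in control and 39.96% ± 1.48 in the Rif1-KO libraries (SD, n = 3) and so fell by 2.67 points. Its control share depends on the length used, at 53.0% with the longest transcript, 49.4% without division by length and 33.4% with the longest coding transcript. In these 3 positions the groups did not overlap, and each share had an exact two-sided permutation p of 0.1, the smallest that 3 libraries against 3 allow, and 0.167 after adjustment over the 5 shares tested. No share can therefore pass a threshold of 0.05 in this design. The shares carry no GC offset. With it, the log2 fold change of Dpf2 went from −0.31 to −0.34 and that of Phf10, its paralog with the most reads, from −0.12 to −0.28, so these 2 genes differed less.

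In the scaffold and BAF60 positions the shares differed by less than the spread of the libraries. Smarcc1 took 81.3% ± 0.870 of the scaffold position in control and 81.7% ± 0.787 in the Rif1-KO libraries (SD, n = 3; exact permutation p = 0.6), a difference of 0.378 points that turned to −0.106 without control replicate 2 and to −0.0756 without Rif1-KO replicate 2. Smarcd1 took 57.5% ± 0.811 and 57.5% ± 1.82 of the BAF60 position it shares with Smarcd2 and Smarcd3 (exact permutation p = 1), and the sign of that difference turned with the length used, without control replicate 2 (0.397 points) and without Rif1-KO replicate 1 (0.967 points). Smarcd3, the BAF60C gene of heart and muscle, fell steeply within this position, from 31.0, 31.5 and 32.5 CPM to 15.5, 13.8 and 11.2 CPM (log2 fold change −1.22 ± 0.10, adjusted p = 5.25e-09). Its count is uncertain, since 48.2% of its exon bases overlap Chpf2 on the other strand. Chpf2 itself stood at 15.8 ± 1.72 and 15.2 ± 2.02 CPM (adjusted p = 0.777), a count open to the same overlap. How much the overlap bears on the change of Smarcd3 was not tested. Smarcd2 fell by 0.34 ± 0.06 (adjusted p = 5.97e-05). Actl6b, the neuronal partner of Actl6a, had no read in any library, which by counting error alone, at 3 counts over the group, allows up to 0.113 CPM for control and 0.0996 CPM for Rif1-KO.

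**Figure D3:**
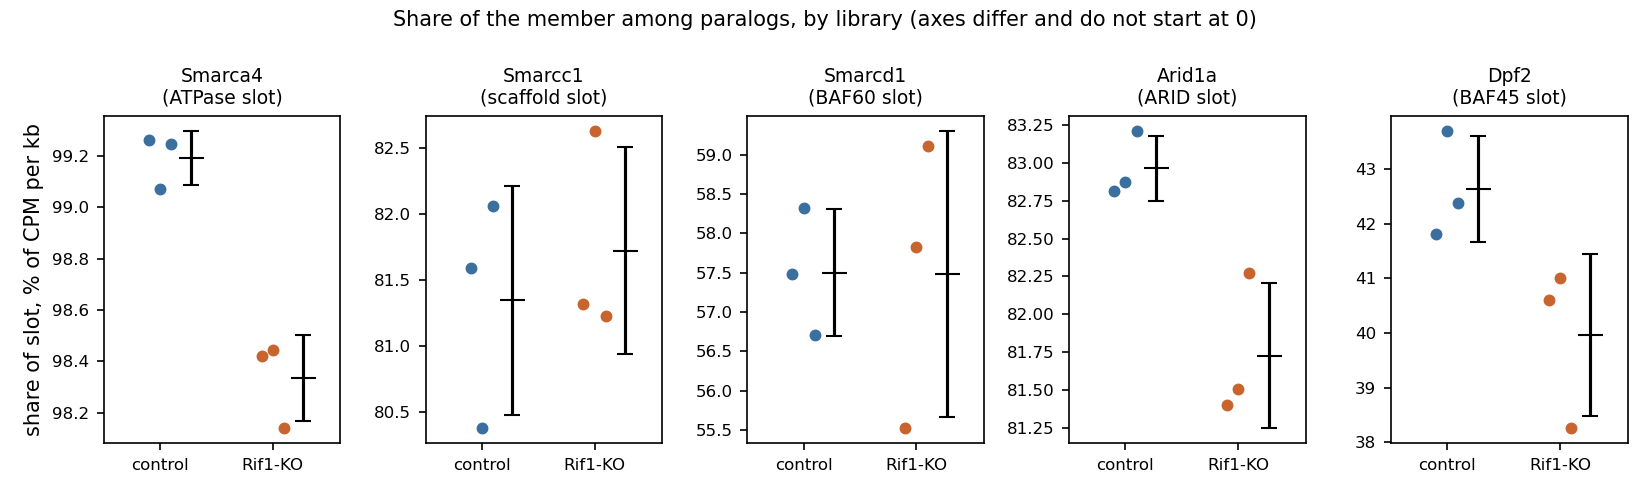
Share, in percent of summed CPM per kb of exon union, that Smarca4, Smarcc1, Smarcd1, Arid1a and Dpf2 take among the paralogs of their position, by library (points) with mean and SD beside them; vertical axes differ and do not start at 0. The Rif1-KO points lie below the control points for Smarca4, Arid1a and Dpf2 and overlap them for Smarcc1 and Smarcd1.

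Among the 12 further BAF subunit genes looked up, 10 were tested, of which 6 fell, 3 rose and 1 did not pass, with a median log2 fold change of −0.324. The 3 BCL7 genes, small subunits of the ATPase module, all fell, Bcl7a from 56.7 ± 3.60 to 45.6 ± 2.42 CPM (SD, n = 3), Bcl7b by 0.37 ± 0.10 and Bcl7c by 0.34 ± 0.08 on the log2 scale. Dpf1, the neuronal relative of Dpf2, fell from 9.48 ± 0.830 to 5.76 ± 0.822 CPM, while Dpf3 was left out by the filter at 0.194 ± 0.183 and 0.615 ± 0.299 CPM. Besides Smarca2, the genes that rose were Ss18 and Actb. Ss18, whose product is the BAF subunit fused in synovial sarcoma, stood at 134, 139 and 126 CPM in control and at 159, 164 and 173 CPM in the Rif1-KO libraries (log2 fold change 0.32 ± 0.05, adjusted p = 2.92e-05), a rise that shrank to 0.17 with the GC and length offset (adjusted p = 0.0062). Actb, which encodes the actin that binds the ATPase module and is also the main cytoskeletal actin, rose from 1261 ± 19.6 to 1867 ± 10.5 CPM (adjusted p = 2.19e-09).

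Of the 4 genes specific to PBAF, all tested, Pbrm1 rose and the other 3 did not pass, with a median log2 fold change of −0.01. Arid2, the ARID subunit that takes the place of ARID1A in PBAF, stood at 109.5, 103 and 100.3 CPM in control and at 101, 102 and 109.5 CPM in the Rif1-KO libraries (log2 fold change −0.01, 95% interval −0.12 to 0.11, adjusted p = 0.941). Brd7 had a log2 fold change of −0.02 (95% interval −0.15 to 0.10) and Phf10 one of −0.12 (−0.22 to −0.01, adjusted p = 0.0703). Phf10 passed in 3 of 14 alternatives, among them the fit without Rif1-KO replicate 3 (−0.16, adjusted p = 0.0196). Without Rif1-KO replicate 2 it was −0.09 (adjusted p = 0.225). Pbrm1, the gene for the polybromo subunit, went from 144 ± 2.45 to 162 ± 7.72 CPM (SD, n = 3; adjusted p = 0.00637), but its direction turned once GC content and length were added as an offset (−0.07, adjusted p = 0.195), and in that fit Phf10 fell (−0.28, adjusted p = 8.97e-05). Values of Arid2 and Brd7 with this offset are not given here. Of the 3 genes specific to ncBAF, 2 were tested. Brd9, the bromodomain gene that marks this form, stood at 39.5, 38.9 and 37.9 CPM in control and at 50.7, 47.1 and 54.1 CPM in the Rif1-KO libraries. It rose by 0.38 ± 0.07 on the log2 scale (adjusted p = 9.79e-05), or by 0.29 with the GC and length offset. Gltscr1, now named Bicra, did not pass (−0.20 ± 0.09, adjusted p = 0.0527). Bicral is not analysed here.

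**Figure D4:**
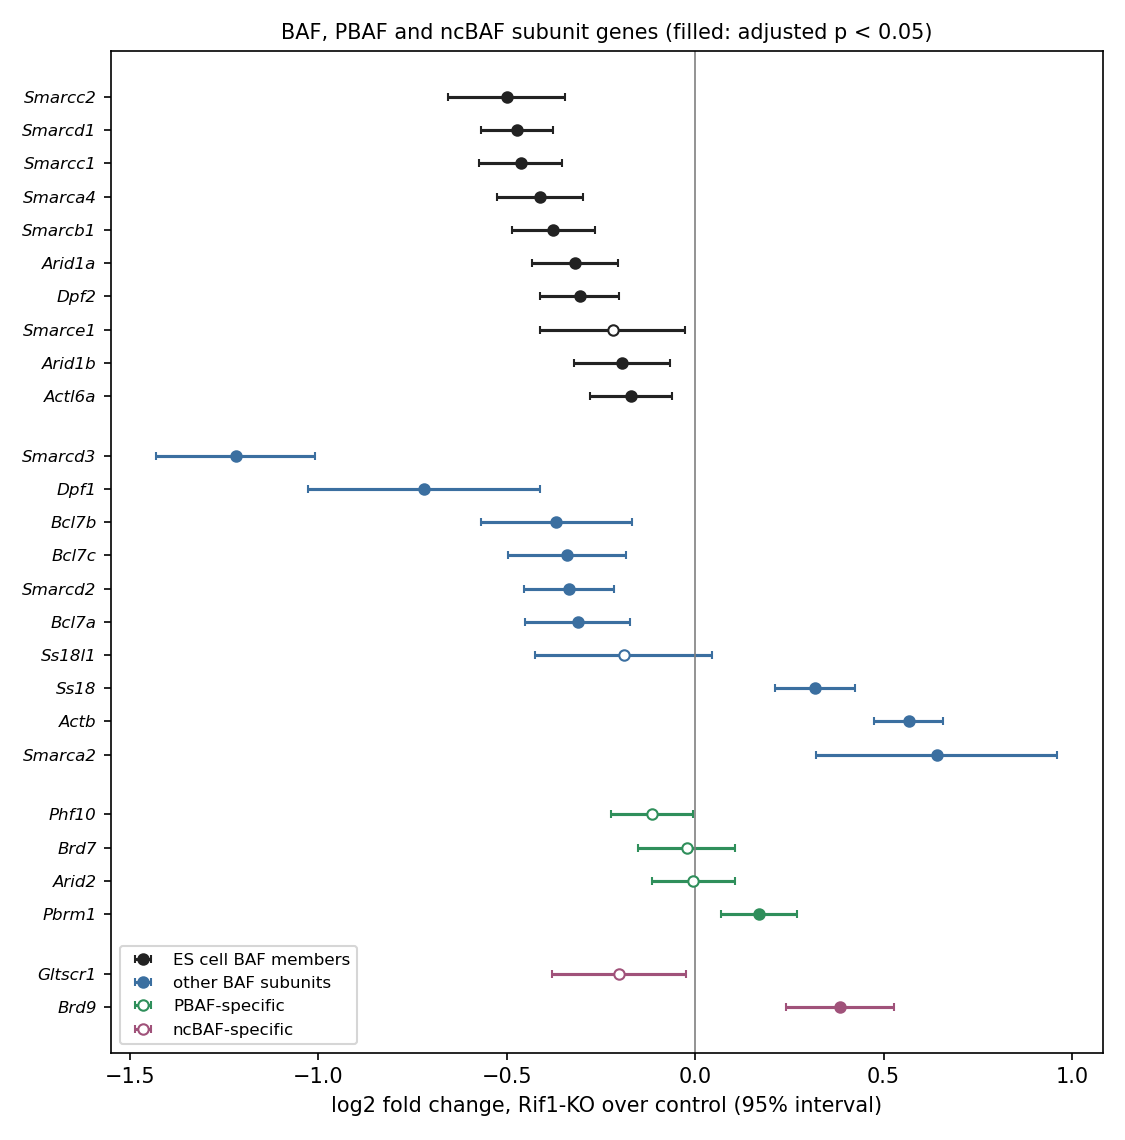
Log2 fold change of BAF, PBAF and ncBAF subunit genes, Rif1-KO over control (horizontal axis), with 95% intervals from edgeR; filled points passed an adjusted p of 0.05, open points did not. The 10 members all lie below 0, between −0.50 for Smarcc2 and −0.17 for Actl6a, whereas Arid2 and Brd7 lie near 0 and Ss18, Actb, Smarca2, Pbrm1 and Brd9 lie above it. No GC and length offset was applied here, and with it Pbrm1 lay below 0 (−0.07) and Phf10 fell (−0.28).

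The ratio of a member to a gene of PBAF or ncBAF, or to Ss18, both per kb of longest coding transcript, can be read within each library and so does not depend on the scaling between libraries, though no GC offset was applied to it. These 5 ratios were chosen after the values of the single genes were seen, so they are a description with no test. Arid1a to Arid2 was 2.68, 3.28 and 3.24 in control and 2.48, 2.41 and 2.48 in the Rif1-KO libraries, without overlap, and its mean fell by 19.9%. Dpf2 to Phf10 was 0.538 ± 0.0241 in control and 0.471 ± 0.0268 in the Rif1-KO libraries (SD, n = 3), also without overlap, a difference that the offset values of Dpf2 and Phf10 given above make smaller. The level of this ratio depends on the length used, since before division by length Dpf2 stood at 105.8 CPM and Phf10 at 98.8 CPM in control. The ratio of Arid1a to Brd9 went from 2.36 ± 0.199 to 1.45 ± 0.0447, and that of Smarca4 to Ss18 went from 1.94 ± 0.175 to 1.17 ± 0.0302. Arid1b to Arid2 overlapped between the groups, at 0.4998 ± 0.0510 and 0.436 ± 0.0127 (SD, n = 3).

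Sequence before a RefSeq transcription start was available for 9 of the 10 genes, in 10 windows of 250 bases (Arid1a has 2 starts). Some windows reach into transcripts that begin earlier in the annotation. The sequences come from RefSeq on build GRCm38.p6, which is another build than the mm9 of the counts. GC content of these windows ran from 57.2% to 81.6%, against a median of 60.0% for windows of tested genes. A search on both strands for the NRF1 motif GCATGCGC found it before Smarca4 and Smarcc1, and it occurs in 2.26% of all 32851 windows and in 4.31% of those of tested genes. A search for the E2F motifs TTTGGCGC and TTTCCCGC found a match before Smarcd1 and before the second start of Arid1a, against 1.3% of all windows and 2.33% of those of tested genes. These 4 genes include the ATPase, the main scaffold and the member with the lowest p, so the stretches are shown with the matched letters in capitals, 5′ to 3′ on the gene's strand. For Smarca4 (chr9:21615919-21616105, plus strand) and Smarcc1 (chr9:110131774-110131979, plus strand) the stretch ends before the first base of the window that the annotation marks as transcribed. The Smarca4 window holds 2 NRF1 matches. The first is printed in capitals, and the other runs past the end of the stretch, so its opening letters stand in lower case there. For Smarcd1 (chr15:99702145-99702174, plus strand) and Arid1a (chr4:133754022-133754051, minus strand) it is 30 bases around the match.
Smarca4: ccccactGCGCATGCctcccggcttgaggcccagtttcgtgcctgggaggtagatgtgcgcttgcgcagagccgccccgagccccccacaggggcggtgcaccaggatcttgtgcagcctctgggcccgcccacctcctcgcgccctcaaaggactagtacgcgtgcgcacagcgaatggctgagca
Smarcc1: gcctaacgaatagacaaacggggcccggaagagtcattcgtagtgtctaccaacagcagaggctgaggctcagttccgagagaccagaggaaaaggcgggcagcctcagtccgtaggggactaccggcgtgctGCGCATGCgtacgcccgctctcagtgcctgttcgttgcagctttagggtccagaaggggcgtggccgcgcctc
Smarcd1: gtcagcacgccTTTCCCGCtagtcgccccc
Arid1a: tccctccctccTTTCCCGCcccctccccct

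Further motifs were searched in the same way on both strands. The GC box GGGCGG was found in 8 of the 10 member windows, against 57.7% of the windows of tested genes, and CCAAT, the NF-Y motif, in 1, that of Dpf2, against 35.3%. The ETS motif CCGGAAGT, the YY1 motif AAGATGGC and the E-box CACGTG were in none of the 10 member windows, and in 5.47%, 1.83% and 8.51% of the windows of tested genes. A match describes these letters only, and a missing one says nothing about binding.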

How the data were processed

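The deposited values are unnormalized read counts by gene symbol. STAR, featureCounts 1.6.2 and the build mm9 are named for them, per the submitters' processing notes. Annotation version, strand setting and treatment of multi-mapping reads: not given in the sources used here. Counts were tested across all genes with edgeR 4.0.16 in R 4.3.3 (filterByExpr, TMM, quasi-likelihood test, group as the only term, 6 libraries, 14250 genes). The ± of a log2 fold change is its standard error. Shares were tested by exact permutation of libraries. Lengths and GC content came from GENCODE M21 (GRCm38), matched for 97.8% of tested genes. CPM is the count over the TMM-scaled library size. The edgeR test, but not the shares, ratios or offset, was also run on simulated data with far fewer changed genes than passed here. The floor for a count of 0 covers counting error only.

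The members and lists were chosen with earlier results of these data known. Named genes are the 10 members, Rif1, their paralogs, and up to 4 called genes per list in order of adjusted p. The remaining BAF, PBAF and ncBAF genes, Mrpl47, Chpf2, the levels per coding transcript and the ratios were added after their values were seen. Alternatives were other scalings, DESeq2 1.42.0, limma-voom 3.58.1, no filter, a replicate block, a GC and length offset, and leaving out each library. Same-numbered libraries did not deviate together, so no pairing was used.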

Additional observations from a re-analysis of the deposited data

How the results depend on the processing

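Over 14 alternatives between 8 and 10 of the BAF genes fell, none rose in any of them, and none changed direction. Of the 140 gene results under these settings, 133 kept their side of the threshold. The 7 others were Smarce1, which passed in 6 settings, and Arid1b, which was lost without control replicate 2. With the replicate block 9 of the 10 fell, 24 other remodeller genes fell and 11 rose, so the block changed no call among the members, though Rif1 passed (−0.12, adjusted p = 0.0227). The numbers do not pair the libraries: the correlations of deviations were 0.0793, −0.0646 and 0.0461, and not every library correlated best with its own number. The offset for GC content and length moved the division of all calls from 3722 higher and 3529 lower to 2927 and 4654, with a median over all tested genes of −0.0755 and over the members of −0.424. Under it 37 other remodeller genes fell in place of 23, or 38 with the block added, and Pbrm1 turned to −0.0684 in both. The offset also takes up the mean deviation of each library, so values given with it are not corrected for GC content and length alone. How much each part moved them was not tested. The difference in the share of Smarcd1, −0.0148 points, turned to 0.0597 with the longest transcript, 0.74 without division by length and 2.05 with the longest coding transcript, a length chosen after the data were seen. Leaving out 1 library gave −0.826 to 0.967 points for Smarcd1 and −0.106 to 0.737 for Smarcc1, whose main value was 0.378. The shares of Smarca4, Arid1a and Dpf2 kept their sign under the 9 alternatives run for them, which do not include the offset for GC content and length. Depth limits what can be said of Smarca2, Dpf1 and Dpf3, which had few reads.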

Other observations

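Other families of chromatin remodellers held genes that fell and genes that rose. Of 11 ISWI genes, whose complexes space nucleosomes evenly, 6 fell, 1 rose and 4 did not pass, with a median log2 fold change of −0.173. Baz2a, a silencer of ribosomal DNA, went from 881 ± 20.1 to 740 ± 36.2 CPM (SD, n = 3; adjusted p = 0.000175), and Cecr2 and Baz2b fell by 0.27 ± 0.05 and 0.29 ± 0.06 on the log2 scale, or by 0.45 and 0.48 when GC content and length entered as an offset. Baz1a, a subunit of the ACF complex, rose from 25.0 ± 0.816 to 37.3 ± 3.37 CPM (adjusted p = 6.88e-06). With that offset, which also moved the median of all tested genes to −0.0755, its log2 fold change went from 0.58 to 0.40. Of 30 genes of the INO80, SRCAP and TIP60 complexes, known for nucleosome sliding, exchange of the histone variant H2A.Z and histone acetylation, 9 fell, 2 rose and 19 did not pass, with a median of −0.124. Ruvbl2, an AAA+ ATPase common to these complexes, stood at 225 ± 3.27 and 160.2 ± 1.68 CPM (adjusted p = 1.7e-08). Ino80e fell by 0.57 ± 0.07 and Srcap by 0.31 ± 0.05, while the scaffold gene Trrap rose by 0.35 ± 0.05. With the GC and length offset Ino80e was −0.68, Srcap −0.40 and Trrap 0.27.

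Of 10 CHD and single SNF2 remodeller genes outside NuRD, 2 fell, 2 rose and 6 did not pass, with a median of 0.0622. Chd1l fell from 56.2 ± 2.56 to 36.1 ± 1.91 CPM (SD, n = 3; adjusted p = 1.62e-07) and Hells, a helper of DNA methylation, by 0.36 ± 0.05 on the log2 scale, or by 0.59 with that offset. Chd7, the gene mutated in CHARGE syndrome, rose by 0.39 ± 0.06, or by 0.28 with that offset. Chd6 (0.17 ± 0.06, adjusted p = 0.0214, with overlapping libraries) lost its call in 6 of 14 alternatives, among them the GC and length offset, where it was 0.00603 (adjusted p = 0.933), DESeq2 (adjusted p = 0.0515) and the fits without control replicate 1 (adjusted p = 0.0973), control replicate 2 (0.051) and Rif1-KO replicate 3 (0.126). Over all 6 lists of other remodeller subunits, 23 of 67 tested genes fell and 10 rose, against 24.8% and 26.1% of all tested genes.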
